A study of Homo sapiens with 12 samples.

Results

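Insulin-like growth factor (IGF) binding proteins and their partners were followed in IMR90, a widely used fibroblast line from normal human lung, as the cells went from proliferation (Pro) into replicative senescence (Sen), the lasting arrest reached after continuous passaging. The 10 genes were taken by symbol, out of 38716 symbols in the deposited tables. They were the 6 binding proteins IGFBP2, IGFBP3, IGFBP4, IGFBP5, IGFBP6 and IGFBP7, the ligands IGF1 and IGF2, and the receptors IGF1R and IGF2R. All 10 passed the filter on low counts at the mRNA level, and 9 of them, all but IGF1, passed it for ribosome-protected fragments.

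RNA-seq of poly(A)-enriched RNA and Ribo-seq, in which the mRNA pieces that a ribosome protects from RNase digestion are read, were performed on 3 lysates per state, which makes 12 libraries in 4 groups of 3. Pro and Sen cells shared the line, the medium with serum, and the cycloheximide in the lysis buffer. They differed in passage alone, as far as the labels say. Per the labels 2 isolates of the line were cultured, not assigned to samples, and the RNA-seq files of Pro cells carry a tag resembling the solvent name DMSO that the labels do not explain, so that isolate or solvent and state cannot be told apart. The mRNA level of a gene was the sum of its 5′ UTR, coding sequence (CDS) and 3′ UTR reads, and its ribosome-protected fragments (RPF) were the CDS reads of Ribo-seq. Translational efficiency (TE) was the ratio of RPF to mRNA in the same lysate.

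RNA-seq libraries held 7895187 to 14133300 mRNA reads. Ribo-seq libraries were uneven, with 54323 CDS reads in Pro 1 and 54587 in Sen 2 against 583669 to 1718431 in the other libraries. In those 2 shallow libraries 1 footprint was worth 17.4 and 17.6 CPM (counts scaled to library size), and a floor of 3 footprints lay at 52.1 and 52.7 CPM. Sen 2 also held more 5′ UTR than CDS footprints in all, 60184 against 54587. The cells carried fibroblast markers in every library, with all 8 markers detected at a summed mRNA level of 26700 to 31700 CPM. Epithelial markers summed to at most 2.31 CPM over 5 genes and endothelial ones to at most 1.03 CPM over 4 genes. Leukocyte markers summed to 19.4 to 21.1 CPM in Pro and 31.3 to 34.4 CPM in Sen, with 1 of 4 genes, CD68, above 1 CPM. The smooth muscle markers MYH11 and DES summed to 76.9 to 84.1 CPM in Pro and 58.7 to 71.8 CPM in Sen, and the part of these other markers in the results was not tested.

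IGF1 and IGF2 are secreted peptides that drive growth and survival through the receptor tyrosine kinase IGF1R, while IGF2R carries IGF2 to lysosomes for breakdown. Binding proteins hold the ligands in the extracellular space, set how much of them reaches the receptor, and are themselves cut by secreted proteases. IGFBP7, a more distant relative that binds IGFs weakly, is known with IGFBP3 and IGFBP5 as part of the secretory output of senescent fibroblasts.

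IGFBP2 lies at chr2:217497551-217529159 on the plus strand and IGFBP5 beside it at chr2:217536828-217560272 on the minus strand (GRCh37, GENCODE annotation, since the build of the deposited tables is not given in the sources used here). IGFBP3 lies at chr7:45951844-45961473 (minus), IGFBP4 at chr17:38599702-38613977 (plus), IGFBP6 at chr12:53491220-53496129 (plus) and IGFBP7 at chr4:57896939-57976551 (minus). The ligands are at chr12:102789652-102875522 (IGF1, minus) and chr11:2150342-2179621 (IGF2, minus), and the receptors at chr15:99191768-99507759 (IGF1R, plus) and chr6:160390114-160534539 (IGF2R, plus). Footprints were counted on either side of the start codon in the results given further on, and the start codons of the 6 binding proteins are therefore printed with 12 bases on each side. They were read from the canonical transcripts, each from 1 exon, with the ATG in capitals.
IGFBP2 (chr2:217498235-217498261, plus): ccgaccgccagcATGctgccgagagtg
IGFBP3 (chr7:45960725-45960751, minus): gttgcaggcgtcATGcagcgggcgcga
IGFBP4 (chr17:38599976-38600002, plus): cctcgggcggtcATGctgcccctctgc
IGFBP5 (chr2:217559484-217559510, minus): gactaagagaagATGgtgttgctcacc
IGFBP6 (chr12:53491490-53491516, plus): caaaccctgaccATGaccccccacagg
IGFBP7 (chr4:57976503-57976529, minus): ccgcaccccgccATGgagcggccgtcg

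The 6 transcripts code for proteins of similar size, with coding sequences of 720 to 975 bases, but differ in what precedes them. IGFBP5 has a 5′ UTR of 774 bases, IGFBP4 one of 286, IGFBP3 of 132, IGFBP2 of 104, IGFBP6 of 51 and IGFBP7 of 34, against a median of 133 over 19420 canonical coding transcripts. The sense strand was searched for the letters ATG before the start codon, which 41.9% of those transcripts hold. The long IGFBP5 leader held 0, as did those of IGFBP2, IGFBP6 and IGFBP7. IGFBP4 held 1, at position -231 from the first base of the start codon, with a stop codon in frame before the start codon, and IGFBP3 held 1, at position -130, with none.
IGFBP4 upstream ATG (chr17:38599745-38599771, plus): gccgggccgaggATGcggcgcagcgcc
IGFBP3 upstream ATG (chr7:45960855-45960871, minus): agATGcgagcactgcgg

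At the mRNA level, all 10 genes differed between the states. The 3 lysates of one state did not overlap those of the other for any of them. How often this is so over all genes was not computed, so nothing is read from this count. IGFBP7, IGFBP3 and IGF2 rose 7- to 8-fold, IGFBP4 and IGFBP2 less than 2-fold, and both receptors slightly, whereas IGFBP5 and IGFBP6 fell. A gene was called changed at an adjusted p under 0.15, here and throughout the Benjamini-Hochberg value of edgeR's quasi-likelihood test, over all genes tested. By that rule 8 members were higher and 2 lower in Sen. Most of the transcriptome differed between the states, with 73.6% of 12787 genes called, 36.6% higher and 37.0% lower. Being called is therefore common, and the size of the change says more than the call. In bulk lysates, fewer cells that express a gene and less RNA per cell cannot be told apart.

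Among the binding proteins, IGFBP7 had the largest change. Its mRNA stood at 409, 432 and 424 CPM in Pro 1, 2 and 3 and at 3350, 3538 and 3204 CPM in Sen 1, 2 and 3. The change was 2.996 ± 0.08 on the log2 scale (SE, adjusted p = 3.12e-18), and 0.962% of all genes tested had a higher fold change. IGFBP3, the main carrier of IGFs in serum, stood at 434, 441 and 435 CPM in Pro and at 3179, 3199 and 3118 CPM in Sen. It rose by 2.86 ± 0.07 (adjusted p = 3.12e-18), and its lysates were the closest to each other of all members in both states. Pro and Sen levels of IGFBP3 and IGFBP7 lay within the same range of 409 to 441 and 3118 to 3538 CPM. The likeness is one of read number, not scaled to length. Per kilobase of coding sequence, CDS reads stood at 290.9 CPM for IGFBP3 and 678.5 CPM for IGFBP7 in Pro, and at 2172 and 5540 CPM in Sen.

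IGFBP4, which holds IGFs away from their receptor until it is cut by PAPPA, stood at 1851, 1891 and 1791 CPM in Pro and at 3598, 3440 and 3390 CPM in Sen, a rise of 0.91 ± 0.07 (adjusted p = 2.77e-10). IGFBP2 rose from 131, 135 and 133 CPM to 244, 197 and 211 CPM, by 0.71 ± 0.08 (adjusted p = 5.63e-08). IGFBP5, which also binds extracellular matrix, had the highest mRNA level in Pro among gene symbols with CDS reads (rank 1 of 15484). This level counts UTR reads and is not scaled to length, and its values were 15520, 17090 and 16980 CPM. IGFBP5 fell to 10880, 10760 and 12290 CPM in Sen, by 0.55 on the log2 scale, with an SE of 0.08 (adjusted p = 3.46e-06). IGFBP6, which prefers IGF2 as a ligand, went from 125, 117 and 126 CPM to 112, 104 and 99.4 CPM, a small fall of 0.22 with an SE of 0.07 (adjusted p = 0.011). IGFBP2 and IGFBP5, neighbours on chromosome 2, thus moved in opposite directions.

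The ligand IGF2 had 341, 548 and 485 mRNA reads in Pro and 3155, 3793 and 3822 reads in Sen. In CPM these were 41.6, 46.9 and 45.2 against 336, 278 and 349, a rise of 2.84 ± 0.09 (adjusted p = 8.26e-17). Many IGF2 reads were shared out between genes in the deposited tables. The readthrough gene INS-IGF2, which covers IGF2 on the same strand (chr11:2153768-2182439), carried 309, 504.5 and 432 reads in Pro and 2752, 3437 and 3419 reads in Sen, with fractions of reads in both genes, so the level of IGF2 is uncertain while both genes rose. The antisense gene IGF2-AS had at most 4 reads in a library. IGF1 was close to the limit of detection, with 10, 5 and 8 reads in Pro and 14, 18 and 18 reads in Sen. Its change of 0.96 ± 0.34 (adjusted p = 0.0181) was 0.62 and past the threshold no longer (0.157) without Pro 2, over a range of 0.00596 to 0.157 in all alternatives. It had 0 CDS footprints in each Ribo-seq library, which allows a level of up to 1.79 CPM in the deepest library.

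Both receptors rose by less than 0.5 on the log2 scale. IGF1R stood at 63.8, 65.0 and 65.9 CPM in Pro and at 86.9, 76.0 and 88.7 CPM in Sen (0.37 ± 0.08, adjusted p = 2.67e-04). IGF2R stood at 204, 239 and 252 CPM in Pro and at 335, 276 and 359 CPM in Sen (0.48 ± 0.09, adjusted p = 9.29e-05). Pro and Sen did not overlap for either receptor, but the gap between the nearest lysates of IGF2R, 252 and 276 CPM, was smaller than its SD of 42.4 CPM in Sen.

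**Figure D1:**
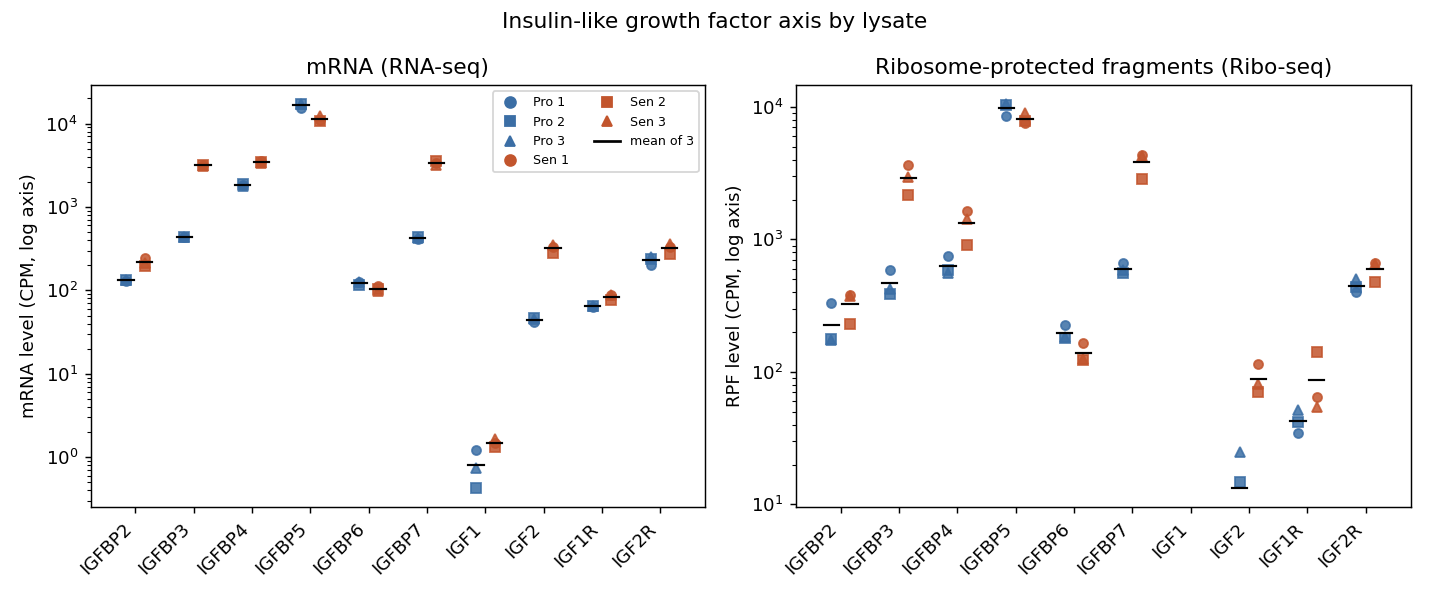
Level of each gene in CPM (log axis) in RNA-seq (left) and Ribo-seq (right), with 1 point per lysate (blue Pro, orange Sen, shape for the lysate number) and a bar for the mean of 3. IGFBP3, IGFBP7 and IGF2 rise far above the spread in both panels, IGFBP5 is the highest throughout, and IGF1 and the Pro 1 value of IGF2, both at 0 CDS footprints, are not drawn on the log axis.

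The RPF followed the mRNA for the genes with large changes. IGFBP3, IGFBP7 and IGF2 rose several-fold in footprints, IGFBP4 and IGFBP2 about 2-fold, and IGFBP5, IGFBP6 and the receptors had changes of less than 0.5 on the log2 scale. Of the 9 members tested, 7 were higher, 1 lower and 1 not called, where 54.4% of 7521 genes were called, 27.5% higher and 26.9% lower.

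IGFBP3 had 34, 261 and 708 footprints in Pro and 5456, 123 and 1522 in Sen. Scaled to depth these were 590, 387 and 422 CPM against 3655, 2162 and 2959 CPM, a 7.02-fold rise (2.81 ± 0.20, adjusted p = 6.55e-21) that only 0.306% of all genes tested exceeded. IGFBP7 went from 659, 554 and 588 CPM to 4346, 2848 and 4254 CPM, a 6.67-fold rise (2.74 ± 0.19, adjusted p = 1.26e-20). In both genes the lowest Sen library, the shallow Sen 2, was still over 3 times the highest Pro library, and without both shallow lysates the changes were 3.03 and 2.91. IGFBP4 rose from 746, 585 and 553 CPM to 1653, 914 and 1427 CPM, without overlap (1.25 ± 0.18, adjusted p = 1.17e-08). IGFBP2 was called as well (0.98 ± 0.17, adjusted p = 2.14e-06), although the shallow Pro 1 with 19 footprints (330 CPM) lay above the shallow Sen 2 with 13 footprints (229 CPM). The 4 deeper libraries of IGFBP2 stood at 177 and 174 CPM in Pro and 381 and 373 CPM in Sen, and without the shallow ones the changes were 1.11 for IGFBP2 and 1.45 for IGFBP4.

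IGF2 had 0, 10 and 42 footprints in Pro and 172, 4 and 42 in Sen, or 0, 14.8 and 25.0 CPM against 115, 70.3 and 81.7 CPM (2.26 ± 0.26, adjusted p = 1.55e-11). It kept its direction and its call in all 13 alternatives. Its coding sequence carried a minority of its Ribo-seq reads in several libraries, and from 19.1% (Pro 3) to 94.7% (Pro 1) of its reads over the mRNA lay in the 3′ UTR.

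IGFBP5 had by far the most footprints of the 6 binding proteins, at 8538, 10310 and 10500 CPM in Pro and 7568, 7894 and 8982 CPM in Sen. The shallow Pro 1 lay below Sen 3, so the states overlapped, and the change of -0.27 ± 0.19 missed the threshold (adjusted p = 0.267). Without Pro 1 it was -0.40 and passed (0.0283), over a range of 0.0132 to 0.652 in all alternatives. IGFBP6 stood at 226, 180 and 185 CPM in Pro and at 166, 123 and 124 CPM in Sen, and its fall of 0.31 with an SE of 0.17 was called narrowly (adjusted p = 0.137). Leaving out Pro 2, Pro 3, Sen 2 or Sen 3 ended that call (0.235, 0.361, 0.196 and 0.527), over a range of 0.0233 to 0.527.

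IGF1R stood at 34.7, 41.6 and 51.3 CPM in Pro and at 64.3, 141 and 54.4 CPM in Sen, where the 141 CPM came from 8 footprints in Sen 2. Its call (0.44 ± 0.24, adjusted p = 0.134) held in 1 of 13 alternatives, over a range of 0.114 to 0.501. It was lost without Pro 1 (0.181), Pro 2 (0.369), Pro 3 (0.166), Sen 1 (0.365) or Sen 2 (0.198). IGF2R stood at 399, 436 and 503 CPM in Pro and 663, 475 and 651 CPM in Sen, with Sen 2 inside the Pro range (0.45 ± 0.16, adjusted p = 0.0199). It was lost without Pro 2 (0.246), Sen 1 (0.201) or Sen 3 (0.156), over a range of 0.00267 to 0.246.

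TE asks whether ribosome occupancy changed beyond the mRNA. It was called for 10.0% of 7473 genes, 6.32% higher and 3.73% lower, and for 0 of the 9 members. With DESeq2 the count was 0 too, and at an unadjusted p under 0.05 it was 0. The TE change of IGFBP3 was -0.03 ± 0.20 (adjusted p = 0.96). Changes larger than an SE of this size can be missed too, as 0.35 ± 0.20 for IGFBP4 was not called (0.338). IGFBP7 had -0.21 ± 0.19 (0.586), IGFBP2 0.25 ± 0.18 (0.476), IGFBP6 -0.10 ± 0.18 (0.825), IGF1R 0.08 ± 0.25 (0.90) and IGF2R 0.01 ± 0.16 (0.981). IGF2 had the most negative value, -0.58 ± 0.30 (adjusted p = 0.282). Without Pro 1, whose IGF2 footprints were 0, it was -0.69 and past the threshold (0.139), while without Pro 3 it was 0.07 (0.982), in a range of 0.139 to 1.

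IGFBP4 and IGFBP5 had the highest TE changes among the binding proteins. IGFBP4 showed 0.35 ± 0.20 (adjusted p = 0.338), which became 0.49 and passed without Sen 2 (0.112), and 0.53 without both shallow lysates (0.0148), the low end of a range that reached 1. IGFBP5 showed 0.33 ± 0.20 (adjusted p = 0.398, range 0.201 to 1). Its TE values per lysate, -0.86, -0.73 and -0.69 in Pro and -0.52, -0.45 and -0.45 in Sen, did not overlap, which was so for 16.2% of genes tested. The footprints of IGFBP5 thus fell less than its mRNA in these lysates, without passing the test.

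**Figure D2:**
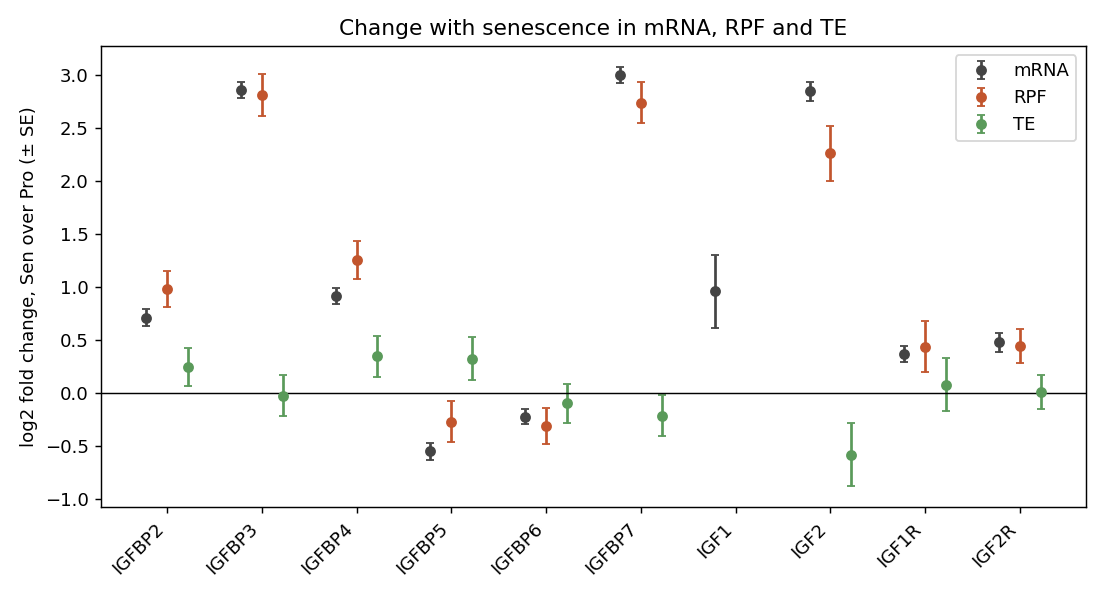
Log2 fold change of Sen over Pro with its standard error for the mRNA (grey), the RPF (orange) and the TE (green) of each gene, from 3 lysates per state. IGFBP3, IGFBP7 and IGF2 lie between 2.26 and 2.996 in mRNA and RPF, while no TE change exceeds 0.58 in size and IGF1 has an mRNA value alone.

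Levels of different genes can be compared per length of coding sequence, using CDS reads in both library types. Among the 6 binding proteins, the share of IGFBP5 fell and those of IGFBP3 and IGFBP7 grew. IGFBP5 made up 55.6% to 57.6% of the CDS mRNA reads per kilobase of the 6 genes in Pro and 16.9% to 20.5% in Sen (means 56.8% ± 1.1 and 18.9% ± 1.9, SD, n = 3). IGFBP7 went from 10.6% ± 0.6 to 41.1% ± 3.3 and became the most abundant per length, IGFBP3 from 4.54% ± 0.15 to 16.1% ± 0.06, and IGFBP4 from 21.8% ± 0.4 to 20.1% ± 1.5. IGFBP2 and IGFBP6 stayed under 4% in each lysate.

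In footprints, IGFBP5 held a larger share than in mRNA. It made up 77.3% to 84.7% of the CDS footprints per kilobase of the 6 genes in Pro and 43.4% to 56.6% in Sen (82.2% ± 4.3 and 50.1% ± 6.6). IGFBP7 rose from 4.91% ± 0.74 to 22.3% ± 2.3 and IGFBP3 from 3.72% ± 1.1 to 16.5% ± 2.7. The share of IGFBP4 was 5.63% ± 1.3 and 8.45% ± 1.5, with overlap. Pro and Sen did not overlap for IGFBP3, IGFBP5, IGFBP6 and IGFBP7 in either library type, and for IGFBP2 in mRNA alone. The share of IGFBP6 fell from 3.35% ± 0.35 to 1.43% ± 0.08 in mRNA and from 1.89% ± 0.37 to 0.957% ± 0.15 in footprints. The 5 genes other than IGFBP5 together took 15.3% to 22.7% of the footprints per kilobase in Pro and 43.4% to 56.6% in Sen. Since shares sum to 100%, the level is needed beside them. IGFBP5 footprints went from 11990 ± 1326 to 9985 ± 907 CPM per kb, and those of the other 5 genes together from 2561 ± 442 to 10110 ± 2405 CPM per kb.

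How far the total devoted to the family moved depended on the measure. The 6 genes took 1.92% to 2.07% of all mRNA reads in Pro and 2.04% to 2.16% in Sen, and at most 1.21% of all CDS footprints in Pro against at least 1.48% in Sen. Per kilobase of CDS, the sum in mRNA went from 6423 ± 430 to 13510 ± 299 CPM per kb, where reads of untranslated regions do not count, and the sum in footprints went from 14550 ± 890 to 20090 ± 2601 CPM per kb.

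**Figure D3:**
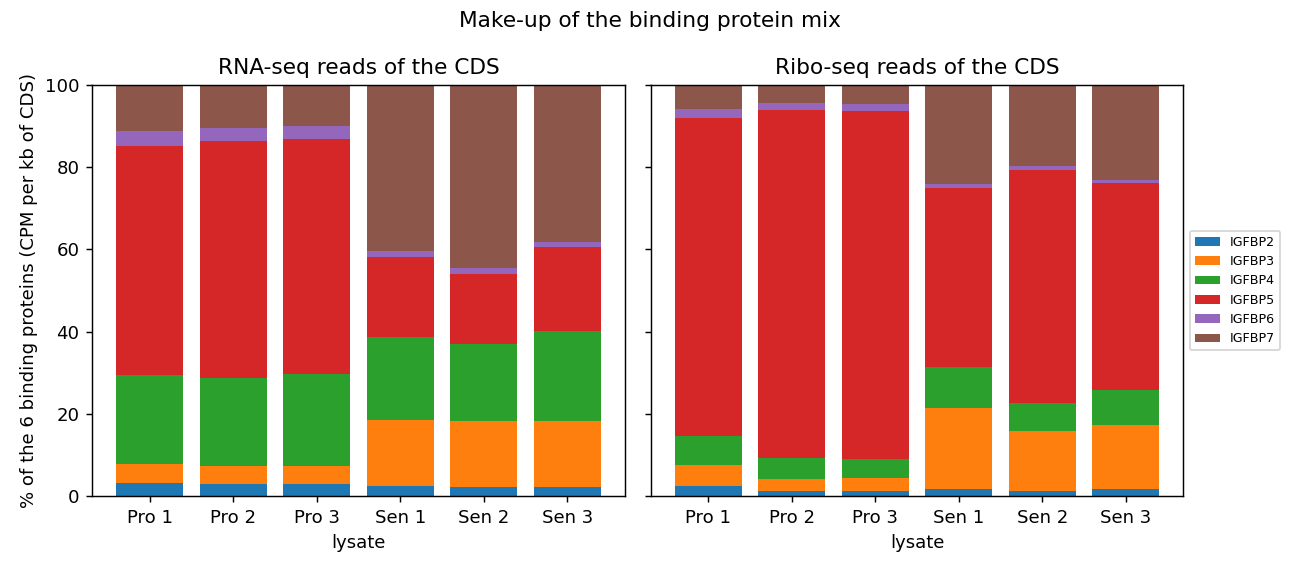
Share of each binding protein in the sum of the 6, in percent, from CDS reads scaled to depth and to the length of the coding sequence, for each lysate in RNA-seq (left) and Ribo-seq (right). IGFBP5 (red) makes up 55.6% to 57.6% of the mRNA and 77.3% to 84.7% of the footprints in Pro, and IGFBP7 (brown) and IGFBP3 (orange) hold larger shares in Sen.

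The difference between both panels is one of TE. When TE was computed from CDS reads in both library types, IGFBP5 had 1.67, 1.72 and 1.76 in Pro and 1.82, 2.12 and 1.96 in Sen on the log2 scale, against medians of 0.14 and 0.10 over 7473 genes. IGFBP4 stood at the other end, at -0.40, -0.92 and -1.05 in Pro and at -0.34, -1.06 and -0.70 in Sen. IGFBP3 lay at 0.86 ± 0.38 and 0.60 ± 0.36, IGFBP2 at 0.22 ± 0.59 and 0.05 ± 0.31, IGFBP6 at 0.37 ± 0.16 and 0.01 ± 0.17, and IGFBP7 at 0.07 ± 0.17 and -0.32 ± 0.42. Among the binding proteins, Pro and Sen did not overlap for IGFBP5, higher in Sen, and IGFBP6, lower in Sen (0.55, 0.29 and 0.26 against 0.20, -0.09 and -0.08). How often this is so over all genes was not computed for this ratio. In each of the 6 lysates IGFBP5 was the highest and IGFBP4 the lowest of the binding proteins. IGFBP2 overlapped IGFBP6 and IGFBP7 in both states, and IGFBP6 lay above IGFBP7 in each Pro lysate but not apart from it in Sen. IGF2R had 0.56 ± 0.05 and 0.49 ± 0.10. With UTR reads in the mRNA level, as in the test above, IGFBP5 lay at -0.76 ± 0.09 in Pro, because 78.0% to 81.9% of its mRNA reads fell in its 3′ UTR of 4649 bases.

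**Figure D4:**
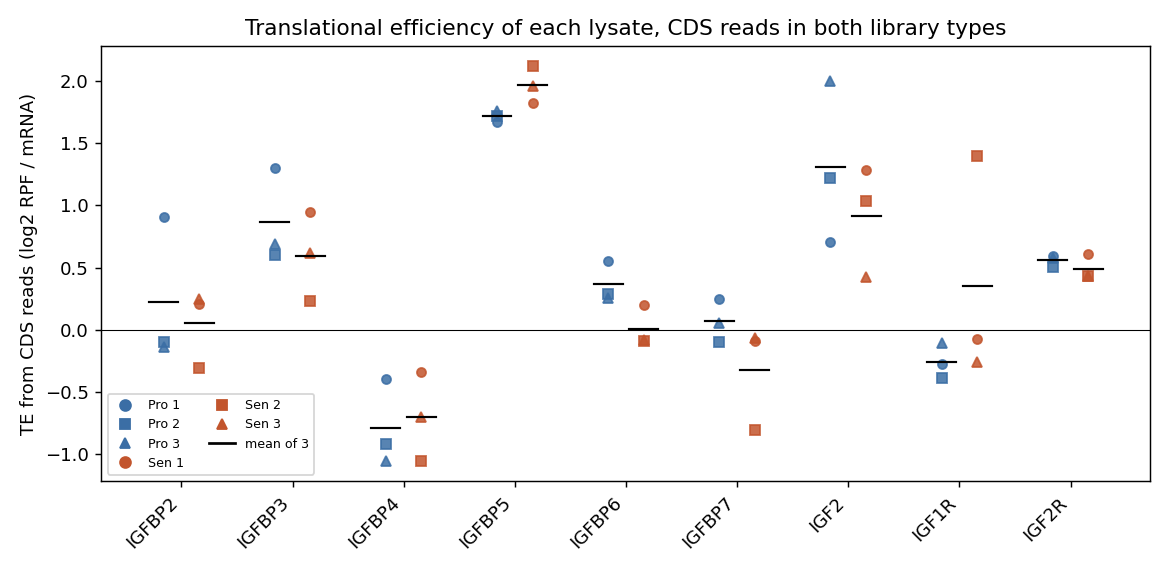
TE per lysate on the log2 scale, as footprints over mRNA reads in the CDS after scaling to depth, for the members other than IGF1 (blue Pro, orange Sen, bar for the mean of 3). IGFBP5 is the highest binding protein in every lysate and IGFBP4 the lowest, and the IGF1R point at 1.39 is Sen 2 with 8 footprints.

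Reads before the start codon were examined because the leader of IGFBP5 is long, and this comparison was chosen after its values were seen. In Ribo-seq, IGFBP5 had 13.6, 11.2 and 9.57 5′ UTR footprints per 100 CDS footprints in Pro and 3.48, 3.34 and 1.45 in Sen, without overlap. These ratios rest on 67, 776 and 1684.5 footprints in Pro and 393.5, 15 and 67 in Sen. IGFBP4 went from 6.98, 4.56 and 3.88 to 0.851, 1.92 and 0.545, and IGFBP3 from 8.70, 4.98 and 1.27 to 0.587, 0 and 0.592. With 3 lysates against 3 the exact permutation test (two-sided) gave p = 0.1 for each, the smallest that 20 splits allow. Groups without overlap always give this value, so it adds nothing to the lack of overlap already seen. The same test gave 0.1 for IGF2R, 0.5 for IGF1R, 0.7 for IGF2 and 1 for IGFBP2, IGFBP6 and IGFBP7, most of which rest on few 5′ UTR footprints. In RNA-seq the same ratio was 73.1 to 88.0 in Pro and 67.9 to 84.7 in Sen for IGFBP5, and the states overlapped for IGFBP3 and IGFBP4 too.

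A fall was also seen in the median over the 325 genes with enough 5′ UTR footprints to be tested. This median was 14.5, 10.5 and 8.91 per 100 CDS footprints in Pro and 6.38, 0 and 2.20 in Sen. With the reads of these genes summed, the ratio was 15.4, 5.16 and 4.4 in Pro and 6.3, 82.8 and 15.1 in Sen. The fall thus held for the median gene and not for the sum. In a test of 5′ UTR against CDS footprints relative to all other genes, none of the 3 members passed, where 4.31% of genes did. The values were -0.99 ± 0.68 for IGFBP5 (adjusted p = 0.489, range 0.142 to 0.948), -1.56 ± 0.66 for IGFBP4 (0.193, range 0.0388 to 0.832) and -1.46 ± 0.69 for IGFBP3 (0.238, range 0.102 to 0.914). IGFBP4 passed without Pro 1 (-1.50, 0.124). All 3 passed when the 5′ UTR footprints were scaled by the factors of the CDS, at -2.14, -2.53 and -2.66, where 37 of the 325 genes were called and their median was -1.09. For RNA-seq reads 0.729% of 8228 genes passed the same test, and 0 of the 8 members tested did.

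**Figure D5:**
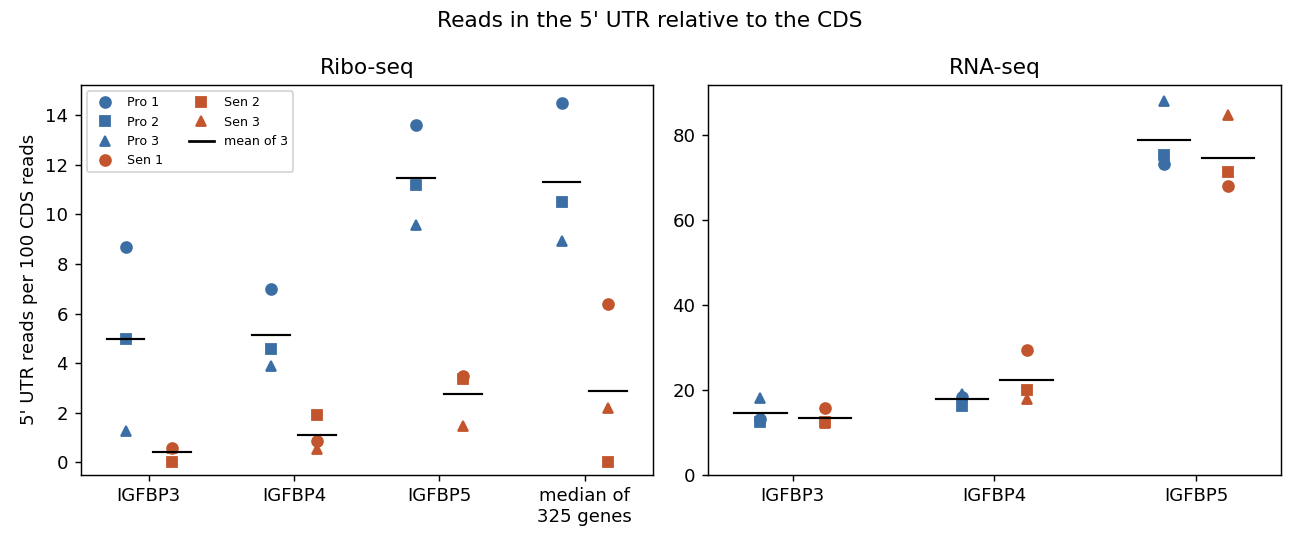
Reads in the 5′ UTR per 100 reads in the CDS for IGFBP3, IGFBP4 and IGFBP5 in Ribo-seq (left) and RNA-seq (right), with 1 point per lysate and a bar for the mean of 3, and on the left the median over the 325 genes tested. In Ribo-seq each Pro lysate lies above each Sen lysate for the 3 genes and for the median alike, and in RNA-seq the states overlap.

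For IGFBP3, IGFBP4, IGFBP5, IGF1R and IGF2R, reads after the stop codon made up a larger share in Sen 2 than in any other Ribo-seq library. The 3′ UTR held 41.9% of the IGFBP5 reads of Sen 2 in Ribo-seq (95% Wilson interval 38.5% to 45.3%), against 3.16% in Sen 1 and 4.99% in Sen 3 and 1.30% to 12.5% in Pro. For IGFBP4 the shares in Sen 1, 2 and 3 were 3.86%, 41.1% and 5.02%, against 0.925% to 9.8% in Pro. IGFBP3 had 20.6% in Sen 2 against 5.06% in Pro 1, the next highest. IGF1R had 20% and IGF2R 12.9% in Sen 2, on 10 and 31 reads. IGFBP2, IGFBP6 and IGFBP7 had 0% there, with upper limits of 22.8%, 35.4% and 2.29%, the first 2 of these on 13 and 7 reads. For IGF2, Pro 1 (94.7%) and Sen 2 (94.1%) were alike. Reads of the 3′ UTR do not enter the RPF. Their share over all genes was not computed, so the excess in Sen 2 cannot be called particular to these genes.

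The other genes of the pathway were taken from lists of 39 genes. At the mRNA level 33 were tested, of which 14 were higher and 9 lower in Sen, with a median change of 0.08 against -0.01 over all genes. For RPF 26 were tested, with 11 higher and 5 lower and a median of 0.06 against -0.003. For TE, 0 of 26 were higher and 2 lower. In all, 23 of 33 were called in mRNA and 16 of 26 in RPF, against 73.6% and 54.4% of all genes. Nothing is read from the list as a whole, nor from the counts of the single lists below.

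Of the 8 proteases that cut binding proteins and their inhibitors, 7 were tested in mRNA, with 4 higher and 0 lower. Over all genes 36.6% were higher and 37.0% lower. STC1, a secreted inhibitor of PAPPA, rose from 19.2, 15.6 and 18.8 CPM to 94.8, 103 and 113 CPM (2.55 ± 0.10, adjusted p = 1.37e-15). PAPPA, the protease of IGFBP4, rose from 127, 155 and 152 CPM to 277, 255 and 298 CPM (0.93 ± 0.08, adjusted p = 1.83e-09), and its footprints from 179 ± 26 to 399 ± 27 CPM (1.25 ± 0.16, adjusted p = 1.68e-09). IGFBP4, PAPPA and the inhibitor STC1 thus all rose in mRNA. STC2, also in this list, had a higher level than STC1, at 606 ± 9.6 CPM in Pro and 651 ± 8.8 CPM in Sen. Its mRNA change was not called (0.10 ± 0.07, adjusted p = 0.186), and its RPF change was called narrowly (0.29 ± 0.16, adjusted p = 0.144). The serine protease HTRA1 rose by 0.55 ± 0.08 (adjusted p = 1.79e-06). Its RPF change (0.49 ± 0.18, adjusted p = 0.0222) lost the call without Pro 2 (0.27) or Sen 1 (0.182), in a range of 0.00412 to 0.719. STC1 footprints rose by 2.71 ± 0.31 (adjusted p = 2.2e-11), although 5 footprints put Pro 1 at 86.8 CPM, among the Sen values. With DESeq2 the change was 1.73 and not called (0.312, the high end of a range from 6.01e-20).

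All 3 proteins that bind IGF2 mRNA changed at the mRNA level. IGF2BP2 fell from 139 ± 7 to 89.6 ± 6.9 CPM, by 0.63 with an SE of 0.08 (adjusted p = 1.97e-07), and IGF2BP1 from 62.4 ± 1.6 to 50.9 ± 2.0 CPM, by 0.29 with an SE of 0.08 (adjusted p = 0.0018). IGF2BP2 footprints fell by 0.75 with an SE of 0.21 (adjusted p = 0.0022), a call lost without Pro 3 (0.386, range 1.35e-04 to 0.386). IGF2BP3 rose in mRNA from 82.4 ± 4.8 to 108 ± 4 CPM (0.39 ± 0.07, adjusted p = 7.49e-05). Its TE fell by 0.70 with an SE of 0.20 (adjusted p = 0.0281), and its footprints by 0.39 with an SE of 0.18 (adjusted p = 0.0792). The TE call of IGF2BP3 was lost without Pro 2 (0.301), Pro 3 (0.236) or Sen 1 (0.61), in a range of 0.00594 to 1, and the RPF call without Pro 2 (0.312), Pro 3 (0.394) or Sen 1 (0.81), in a range of 0.0126 to 0.82.

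The CCN proteins are matrix proteins that share a domain with the IGF binding proteins. Of 4 tested in mRNA, 2 were higher and 1 lower. CCN2 rose from 831 ± 130 to 2331 ± 149 CPM (1.49 ± 0.09, adjusted p = 7.56e-12), and from 1896 ± 118 to 5593 ± 1250 CPM in footprints (1.59 ± 0.19, adjusted p = 5.82e-11). CCN3 fell from 4.16 ± 0.52 to 1.69 ± 0.28 CPM (-1.31 ± 0.22, adjusted p = 1.6e-05), and WISP1, whose reads the tables may split with its newer symbol CCN4, rose by 0.50 ± 0.09 (adjusted p = 6.35e-05).

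Of the 20 genes of receptor signalling, 19 were tested in mRNA, with 7 higher and 6 lower and a median change of 0.01. The adaptor GRB10, which dampens receptor signalling, fell from 42.7 ± 2.4 to 22.3 ± 1.4 CPM (-0.94 ± 0.09, adjusted p = 5.99e-09). The kinase PDPK1 rose from 68.0 ± 3.0 to 119 ± 15 CPM (0.81 ± 0.09, adjusted p = 3.23e-08) and in RPF by 0.85 ± 0.27 (adjusted p = 0.00788), a call lost with DESeq2 (0.216, range 0.0077 to 0.216). The receptor substrate IRS2 rose from 13.1 ± 0.8 to 21.8 ± 5.6 CPM (0.71 ± 0.15, adjusted p = 2.39e-04), and its RPF call (0.93 ± 0.35, adjusted p = 0.0268) was lost without Pro 3 (0.213) or Sen 1 (0.29), in a range of 0.0154 to 0.674. IGFBP1, IGFALS and IGFBPL1, the other binding partners of IGFs, were too low to be tested, with mean mRNA levels of at most 1.07 CPM.

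Genes most like each member were sought over the 6 RNA-seq libraries, by the root mean square (RMS) difference of log2 CPM after centring each gene, among 12787 genes. The gene nearest to IGFBP3 was IGFBP7, at an RMS difference of 0.0772, followed by APLP1 and LRRN3. For IGFBP7, LRRN3 (0.0655) came before IGFBP3 and NMNAT2. IGF2 had NRG1 (0.105), APLP1 and again IGFBP3 (0.120) as its nearest genes. With 3 lysates in each of 2 states this measure is set mostly by the fold change, so that nearness says little beyond similar fold changes. HM13 (0.0216) and ADAMTS12 were among the 3 nearest to IGFBP4. IGFBP5 was nearest to ZFP36L2 (0.0231), AJUBA and SYT11, IGFBP2 to REEP2 (0.0547), TOM1 and GDPD5, and IGFBP6 to RNASEH2C (0.0261), GABPB2 and BAX. The receptor IGF1R was nearest to MMP14 (0.0193) and then MSN, IGF2R to ZFHX3 (0.0286), GATD1 and UNC93B1, and IGF1 to C1QTNF2 (0.157), FAM241B and ERO1B.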

How the data were processed

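Per the labels, cells were lysed in the presence of cycloheximide, fragments of 28-32 nt were isolated, and about 15% of each lysate went to RNA-seq. The authors deposited, per library, expected counts of reads per gene symbol in 7 read classes, unscaled, with 12.1% to 22.7% of nonzero CDS values not whole. The design had assumed plain counts, so values were rounded after regions were summed. The submitters' processing notes name cutadapt 1.18, Bowtie 1.0.1, SAMtools 1.8 and DESeq2 1.22.2. The build, annotation and strand rule of these tables are not given in the sources used here.

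Genes were tested in R 4.3.3 with edgeR 4.0.16 (glmQLFTest, filterByExpr, TMM factors within each library type, two-sided, FDR 15%). Gene symbols with a CDS read in some library numbered 16451. TE was the interaction of library type with state over 12 libraries, with the lysate as a block, and per lysate a log2 ratio after adding 0.5 to each count. The 5′ UTR test was the interaction of region with state. CPM carry TMM factors. Errors on levels, shares and TE per state are SD over 3 lysates, and errors on log2 changes are SE from the fit. Floors of 3 counts and Wilson 95% intervals cover counting error only, since PCR copies are not independent molecules. Alternatives were RLE factors, library totals, 2 other filters, DESeq2 1.42.0, leaving out lysates, the replicate block, CDS reads alone and a threshold of 0.05. The scripts were tested on simulated data. Replicates were grown independently, per the labels.

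The members and lists were chosen with earlier results of these data known. The genes named were the 10 members, up to 3 per list past the threshold in mRNA with the largest change, and the 3 nearest genes per member. STC2 was added beside STC1 as a gene of that list with a higher level, and no alternatives are given for it. The symbols CYR61, CTGF and NOV were matched to CCN1, CCN2 and CCN3. Some genes that these rules pick are not reported here.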

Additional observations from a re-analysis of the deposited data

Results flagged for a closer look

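Reads of 2 other genes at loci of the members were also higher in Sen. IGFBP7-AS1, whose gene (chr4:57975928-58073625, plus strand) overlaps the 5′ end of IGFBP7 by 624 bases on the opposite strand, had 24.2, 29.1 and 31.8 CPM in Pro and 275, 244 and 306 CPM in Sen in RNA-seq, 9.69 times as much in the mean, and at most 1 read in a Ribo-seq library. Within that overlap, reads of IGFBP7 and of its antisense partner cannot be told apart without the strand rule. INS-IGF2 had 40.4 ± 2.7 CPM in Pro and 286 ± 31 CPM in Sen, 7.08 times as much. Because reads were shared out between INS-IGF2 and IGF2, as said above, this rise is not separate from that of IGF2. Neither difference was tested.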

How the results depend on the processing

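The mRNA calls of the members held under each alternative in which they were tested, except that of IGF1 without Pro 2. IGF1 was not tested with at least 10 counts in every library or with CDS reads alone. None of the mRNA or RPF changes of members or named pathway genes, STC2 left aside, reversed. The 8 RPF calls of members became 5 with DESeq2 and ranged from 5 (without Pro 2) to 8 with a lysate left out, and the 16 of the pathway became 2 with at least 10 counts in every library (5 genes tested), 2 with DESeq2 and 7 (without Sen 1, and 8 without Pro 3) to 16 with a lysate left out. The TE count of members went from 0 to 1 without both shallow lysates and ranged from 0 to 1 with a lysate left out. The 2 pathway calls in TE became 1 with all genes of at least 1 read, 0 with at least 10 counts, 0 with DESeq2, 4 without both shallow lysates, 1 at the threshold of 0.05, and 0 to 4 with a lysate left out. The 5′ UTR count of members went from 0 to 3 with CDS factors and to 1 without both shallow lysates, and ranged from 0 to 1 with a lysate left out, and these alternatives were chosen after seeing the data. TE changed sign 18 times, always with an adjusted p of at least 0.421. IGFBP2 had -0.012 with DESeq2. IGFBP3 had 0.19 without both shallow lysates, 0.039 without the block and -0.26 to 0.13 with a lysate left out. IGF2 had -0.94 to 0.067 with a lysate left out. IGF1R had -0.044 without both shallow lysates and -0.024 to 0.29 with a lysate left out. IGF2R had -0.027 (RLE), -0.059 (library totals), -0.045 (at least 1 read), -0.083 (10 counts), -0.065 (DESeq2) and -0.072 to 0.061 with a lysate left out. Over all genes, the 4088 RPF calls became 1164 with DESeq2 and 610 with at least 10 counts, and the 751 TE calls ranged from 28 (DESeq2) to 1339 (no block). With library totals the median of all genes was -0.11 in mRNA, -0.14 in RPF and -2.50 in the 5′ UTR test, against -0.01, -0.003 and -0.17. The cause of these shifts was not tested.

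With the replicate number as a block, 7 pathway genes and 2336 of all genes passed in RPF, and without the block by lysate 4 passed in TE. Deviations of same-numbered Pro and Sen libraries correlated at -0.0731 to 0.0893 in mRNA and 0.0077 to 0.0422 in RPF, so the numbers do not pair the samples. In Pro 1 and Sen 2, depth leaves a floor of 52.1 and 52.7 CPM for RPF, which IGF2 and IGF1R did not reach in Pro 1. The RPF calls of IGFBP6 and IGF1R lie close to the threshold and were lost without any of several libraries.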
